A study of Homo sapiens with 12 samples.

Results

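FaDu is an established human cell line from a squamous carcinoma of the hypopharynx, and FaDu ErlR is a derivative made resistant to erlotinib, an inhibitor of the EGFR kinase, by culture in gradually rising drug doses. This comparison set the 2 FaDu ErlR libraries against the 2 FaDu parental libraries, 4 of the 12 RNA-seq libraries of the series, over every Ensembl gene in the count tables with the spike-in rows left out. The other libraries came from FaDu AfaR, made resistant to afatinib, an irreversible inhibitor of the ERBB receptors, and from the parental, AfaR and ErlR models of Cal27, another head and neck squamous carcinoma line. The labels give all FaDu libraries the same wild-type genotype and the same growth medium, and name erlotinib resistance as the only difference between the groups compared. The general methods kept resistant cells without drug for a day before experiments, which is not stated for the RNA samples. ErlR was 1 resistant population, so its biological replicates share that origin. Libraries were made from poly(A) RNA of frozen cell pellets, with 2 biological replicates per model. Of 58051 genes in the tables, 15092 had enough counts to be tested.

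EGFR and its relatives ERBB2, ERBB3 and ERBB4 pass growth factor signals to the RAS, RAF, MEK and ERK kinases and to PI3K and AKT. ERK activity raises the transcription of AP-1 subunits, of secreted growth factors and of its own feedback inhibitors such as the Sprouty and SPRED proteins. Squamous carcinoma cells are known to lose response to EGFR inhibitors through other receptor kinases, through reactivated ERK or AKT, or with a shift away from the epithelial state, in which cadherins, keratins, matrix proteins and proteases change.

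A gene was called when its adjusted p was under 0.05 and its log2 fold change exceeded 1 in size, by the quasi-likelihood test of edgeR with Benjamini-Hochberg adjustment over all genes tested. FaDu ErlR differed from FaDu parental in 309 genes, 2.05% of those tested. Of these, 233 were higher in ErlR (1.54% of genes tested) and 76 were lower (0.504%). By adjusted p alone, 389 genes were higher (2.58%) and 242 lower (1.6%). The median log2 fold change of all genes was -0.0012, and 49.8% of them had a value above 0. Both ErlR values lay above both parental values for 26.8% of all genes and below both for 27.1%, and the groups did not overlap for any of the 309 genes called. Genes called higher had a median of 3.09 CPM (counts scaled to a common library size, normalised between libraries) in parental and 9.74 CPM in ErlR, those called lower 11.5 CPM in parental and 4.25 CPM in ErlR, and all genes tested 16.2 CPM in parental. Counts of list members that passed an adjusted p of 0.05 are given below, where the shares over all genes are 2.58% higher and 1.6% lower. Below, a pair of values set against another pair gives both parental replicates first and then both ErlR replicates. The calls rested on few libraries. Without parental replicate 1 there were 43 genes higher and 23 lower, without parental replicate 2 there were 57 and 11, without ErlR replicate 2 there were 55 and 20, and without ErlR replicate 1 there were 243 and 67. Of the 309 genes, 27 were called in each of these 4 fits, whereas 238 kept their direction and stayed beyond 1 on the log2 scale in all of them. Of the 30 genes named for the size of their change, PTGS2, CDYL2, S1PR3, NT5E, IFI27, MOB3B, MMP13, OLR1 and PODXL kept their call in each of these fits, and the others lost it in at least 1.

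**Figure D1:**
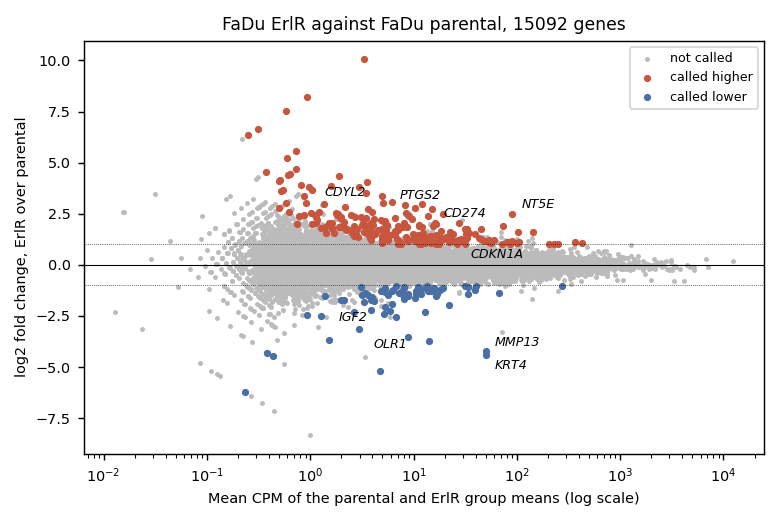
Each point is one of the 15092 genes tested; the x axis is the mean of the group means in CPM on a log scale and the y axis the log2 fold change of FaDu ErlR over FaDu parental, with dotted lines at 1 and -1. The 233 genes called higher lie mostly at low levels, and KRT4 and MMP13 stand apart as abundant genes with large falls.

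The ErlR libraries also stood apart from the parental libraries in measures that do not depend on single genes. FaDu parental held 20441530 and 21867912 counts on genes and FaDu ErlR 16383694 and 16408108, and the ERCC spike-in took 5.79% and 5.82% of all counts in parental against 3.95% and 4.60% in ErlR. Both FaDu AfaR libraries lay with FaDu parental, at 5.64% and 5.74%, and the 6 Cal27 libraries, at 3.86% to 4.54%, lay with FaDu ErlR. The labels give 1 batch for all 12 libraries. Because no FaDu parental library shares the depth and spike-in share of FaDu ErlR, a difference in library making and the ErlR phenotype cannot be told apart by these measures alone. Scaling to the spike-in instead of to the genes moved the median log2 fold change of all genes to 0.49 and the calls to 1514 higher and 62 lower, so all changes below are relative to the bulk of genes.

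A pair of gene groups that a squamous carcinoma culture is not known for also separated FaDu ErlR from FaDu parental and AfaR. These groups were picked after their values were seen. Over all genes 0.504% were called lower and 1.54% higher. Of 36 genes of skeletal muscle fibres, 23 were tested, 7 were called lower in ErlR and 0 higher. The sum of 6 of them (the actin ACTA1, the myosin heavy chains MYH1, MYH2 and MYH4, the troponin TNNC2 and the calcium pump ATP2A1) was 80.2 and 81.6 CPM on raw gene totals in FaDu parental, 78.2 and 76.7 in FaDu AfaR, and 30.8 and 31.9 in FaDu ErlR. In Cal27 it was 29.0 and 35.1 in parental, 13.7 and 14.6 in AfaR, and 11.4 and 23.3 in ErlR, so both resistant models lay below parental there too. As ratios to ACTA1 in all FaDu libraries, MYH4 stayed at 0.606 to 0.697, MYH1 at 0.836 to 0.987 and ATP2A1 at 0.677 to 0.838. MYH2 was at 0.573 to 0.762 and TNNC2 at 0.895 to 1.15, so these 6 genes moved together. Other members of the list did not move with them. TNNI1 was at 0.427 and 0.764 against 0.994 and 1.90 CPM (log2 fold change 1.28, adjusted p = 0.179), and MYL1 and MYLPF had too few counts to be tested. TNNT1, RYR1 and TPM2, which are not restricted to muscle fibres, had log2 fold changes of 0.18, -0.05 and -0.07 and did not pass the test. The 3 myosin genes are near-identical copies whose reads may be shared among them.

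The other group was the snoRNAs, short guides of ribosomal RNA modification that lack a poly(A) tail. The shares called over all genes were 1.54% higher and 0.504% lower. Of 15 snoRNAs tested, 5 were called higher (SNORD30, SNORD43, SNORD63, SNORD69 and SNORD101, genes of 64 to 77 bases) and 0 lower. Their summed level was 0.457 and 0.196 CPM on raw gene totals in FaDu parental, 0.397 and 0.427 in FaDu AfaR, and 12.1 and 13.3 in FaDu ErlR. In Cal27 it was 7.88 and 6.03 in parental, 2.88 and 11.9 in AfaR, and 17.7 and 10.3 in ErlR. SNORD30 had 0 counts in all 4 FaDu parental and AfaR libraries and 97 and 115 in ErlR, and against a floor of 3 counts per library it was at least 45.5-fold higher. The part of these library measures in the other calls was not tested.

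**Figure D2:**
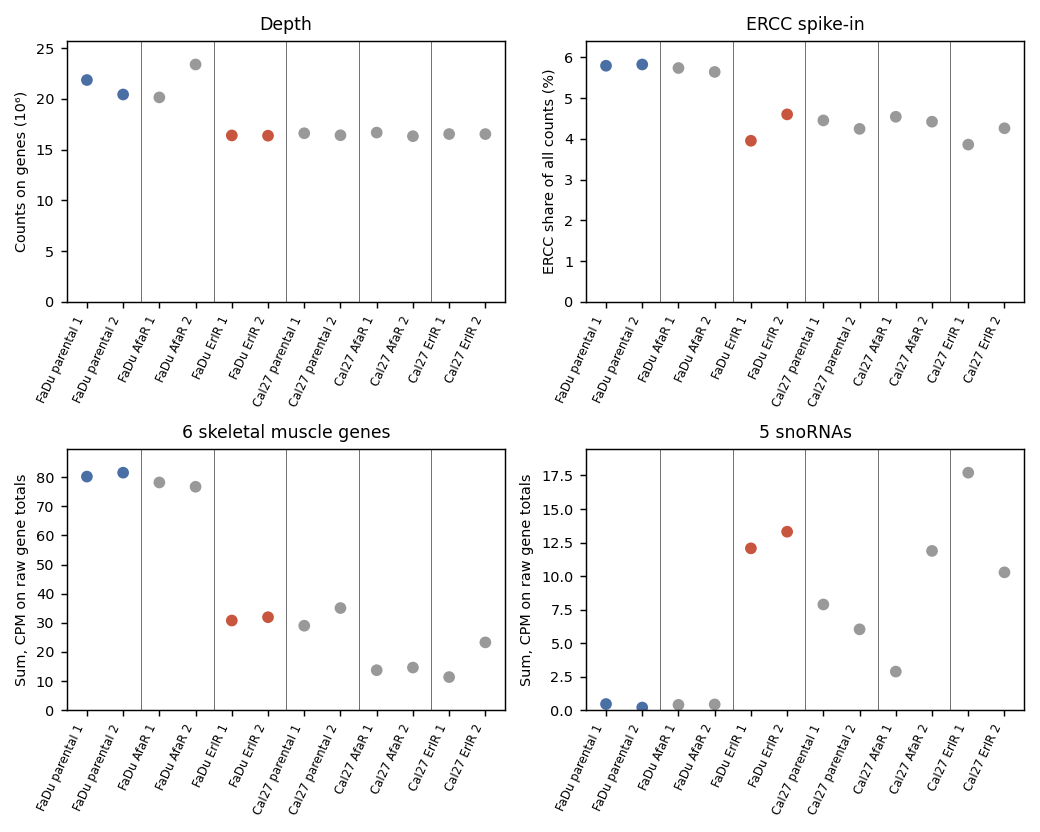
The 4 panels give the counts on genes, the ERCC share of all counts in percent, and the summed CPM, on raw gene totals, of 6 skeletal muscle genes and of 5 snoRNAs, with 1 point for each of the 12 libraries (FaDu parental blue, FaDu ErlR red, others grey). In each panel the 2 FaDu ErlR libraries lie apart from FaDu parental and FaDu AfaR, and among or next to the Cal27 libraries.

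Receptors and ligands of the ERBB family did not pass the test. Of 13 tested receptors and adaptors 0 passed an adjusted p of 0.05 with edgeR, 2 passed an unadjusted p of 0.05, and 0 passed with DESeq2. EGFR was at 534 and 494 CPM in parental and 553 and 591 CPM in ErlR (log2 fold change 0.15 ± 0.10 (SE), adjusted p = 0.434). Its ErlR values lay above both parental values, by less than the spread within each group. ERBB2 was at 96.1 and 91.9 CPM in parental and 86.6 and 82.1 CPM in ErlR (log2 fold change -0.16 ± 0.11 (SE), adjusted p = 0.457). ERBB3, the kinase-impaired partner of ERBB2, had a log2 fold change of -0.42 ± 0.22 (SE) with adjusted p = 0.313. Of 8 ligands tested 0 passed with edgeR, 3 passed an unadjusted p of 0.05, and 1 passed with DESeq2, in the lower direction. HBEGF, which encodes heparin-binding EGF, stood at 6.46 and 6.42 CPM in parental and at 9.70 and 30.9 CPM in ErlR (adjusted p = 0.0656), and the neuregulin NRG1 at 61.4 and 58.6 against 33.8 and 46.5 CPM (adjusted p = 0.0706). TGFA, AREG and EREG were each highest in ErlR replicate 2, and their ErlR and parental values overlapped.

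Among 28 receptor kinases outside the ERBB family and their ligands, 1 passed the test higher and 4 lower (2.58% and 1.6% of all genes did), and 1 was called. IGF2, a growth factor that acts on the IGF1 receptor, fell from 8.03 and 9.12 CPM in parental to 2.49 and 1.65 CPM in ErlR (log2 fold change -2.05 ± 0.29 (SE), adjusted p = 0.0120). The ligands PDGFB and PDGFA also fell, by 0.93 and 0.88 on the log2 scale, as did EPHA2 by 0.48, and EPHB2 rose by 0.59. MET, the receptor of hepatocyte growth factor, was at 235 and 195 CPM in parental and 206 and 234 CPM in ErlR, with overlapping groups (log2 fold change 0.03 ± 0.12 (SE), adjusted p = 0.908). AXL was at 151 and 188 CPM in parental and 288 and 206 CPM in ErlR (log2 fold change 0.54 ± 0.17 (SE), adjusted p = 0.105). FGF10, a ligand of FGFR2 named here after its values were seen, had 0 counts in the 10 other libraries of the series and 42 and 18 counts in the 2 ErlR libraries, at least 12.9-fold higher than parental against a floor of 3 counts per library.

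A pair of ERK feedback inhibitors passed the test narrowly. Of 21 tested genes of ERK output and feedback, 2 rose and were called, and 1 fell, against 2.58% and 1.6% of all genes. SPRY2, a Sprouty inhibitor of receptor kinase signalling, was at 4.18 and 4.84 CPM in parental and 7.96 and 12.2 CPM in ErlR (log2 fold change 1.16 ± 0.27 (SE), adjusted p = 0.0481). SPRED3 was at 1.04 and 0.611 against 2.24 and 3.74 CPM (log2 fold change 1.84 ± 0.43 (SE), adjusted p = 0.0483). For SPRY2 and SPRED3 the call was lost in the edgeR fit of the 4 libraries compared (adjusted p = 0.0527 and 0.0592), with the replicate number as a block (adjusted p = 0.0651 and 0.0744), and without parental replicate 1, parental replicate 2 or ErlR replicate 2. It was kept with DESeq2 (adjusted p = 0.0100 and 0.0346) and in the edgeR fit of all 12 libraries (adjusted p = 0.0158 and 0.0298). DUSP5, a phosphatase of ERK, fell by 0.70 on the log2 scale. DUSP6 (42.6 and 51.2 against 37.5 and 76.1 CPM), ETV4 (31.9 and 38.7 against 28.4 and 41.6 CPM) and MYC (243 and 308 against 292 and 241 CPM) overlapped between the groups. Others did not overlap and did not pass, such as ETV5 (15.3 and 14.8 against 5.59 and 10.8 CPM, adjusted p = 0.249). PHLDA1 was another (62.3 and 56.2 against 89.7 and 197 CPM, adjusted p = 0.0585). At an unadjusted p of 0.05, 7 of the 21 were higher and 2 lower. Of 17 tested AP-1 and immediate early genes 1 fell and 1 rose. NR4A1, an immediate early nuclear receptor, fell from 13.3 and 16.7 to 6.09 and 6.34 CPM (log2 fold change -1.27 ± 0.20 (SE), adjusted p = 0.0152), and KLF6, a zinc finger factor, rose from 18.6 and 19.9 to 30.8 and 41.5 CPM (log2 fold change 0.91 ± 0.21 (SE), adjusted p = 0.0493). FOSL1 was at 535 and 423 against 480 and 1027 CPM and JUN at 101 and 223 against 268 and 159 CPM, both with overlapping groups.

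All of the 15 largest rises except NT5E had parental means below the median of 16.2 CPM over all genes tested, PTGS2, CDYL2 and HDAC9 among them. PTGS2, the inducible cyclooxygenase that starts prostaglandin synthesis (chr1:186671791-186680427, minus strand), was at 0.902 and 1.78 CPM in parental and 8.27 and 14.01 CPM in ErlR, 8.30-fold higher (log2 fold change 3.05 ± 0.38 (SE), adjusted p = 0.00915). It was the only one of 14 tested genes of the prostaglandin pathway to pass the test. CDYL2, a chromodomain protein of chromatin, was at 0.902 and 1.27 CPM against 7.77 and 10.1 CPM (log2 fold change 3.04 ± 0.30 (SE), adjusted p = 0.00402). HDAC9, a class IIa histone deacetylase, was at 4.56 and 2.09 CPM against 13.2 and 18.4 CPM (log2 fold change 2.24 ± 0.33 (SE), adjusted p = 0.0124). For PTGS2, CDYL2 and HDAC9 each ErlR library was well above each parental library, and groups that do not overlap were a condition for naming the 15.

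S1PR3 and NT5E, both proteins of the cell surface, had close ErlR replicates relative to the size of the rise. S1PR3, a receptor of sphingosine 1-phosphate, rose from 2.23 and 5.75 CPM to 27.1 and 25.5 CPM (log2 fold change 2.73 ± 0.34 (SE), adjusted p = 0.00880). NT5E, the CD73 enzyme that makes adenosine outside the cell, was the most abundant of the 15, at 30.7 and 24.0 CPM in parental and 126 and 182 CPM in ErlR (log2 fold change 2.49 ± 0.21 (SE), adjusted p = 0.00278). RIMS2, a protein of vesicle release, rose from 1.47 and 3.82 to 15.7 and 20.1 CPM (log2 fold change 2.76), and FLRT2, a membrane protein of cell adhesion, from 1.42 and 4.02 to 19.3 and 10.6 CPM (log2 fold change 2.46). The parental replicates of S1PR3, RIMS2 and FLRT2 differed over 2-fold, and without parental replicate 2 the log2 fold changes were 3.55, 3.59 and 3.38. RIMS2 lost its call without ErlR replicate 2, and FLRT2 without parental replicate 1 or ErlR replicate 1. HDAC9 went to 2.92 without parental replicate 1 and lost its call without ErlR replicate 2. MOB3B, RFTN1 and TDRP rose by 2.30, 2.14 and 2.07 on the log2 scale.

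For 4 of the 15 the ErlR replicates were far apart. ANTXR2, an anthrax toxin receptor that binds matrix, was at 2.85 and 2.55 CPM in parental and 7.09 and 35.6 CPM in ErlR, and without ErlR replicate 2 its log2 fold change fell from 2.98 to 1.39. ANGPTL4, a secreted inhibitor of lipoprotein lipase, was at 2.47 and 1.38 against 5.16 and 24.1 CPM, and its log2 fold change went from 2.92 to 1.42 without the same library. CORO2B, an actin-binding coronin, went from 2.55 to 1.62 without it. SPOCK1, a matrix proteoglycan, was at 4.84 and 6.82 against 48.0 and 16.9 CPM, and without ErlR replicate 1 its log2 fold change went from 2.48 to 1.53. In ErlR, 1.24% of the 9977 genes at 5 CPM or more differed over 2-fold between replicates, against 0.401% in parental.

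**Figure D3:**
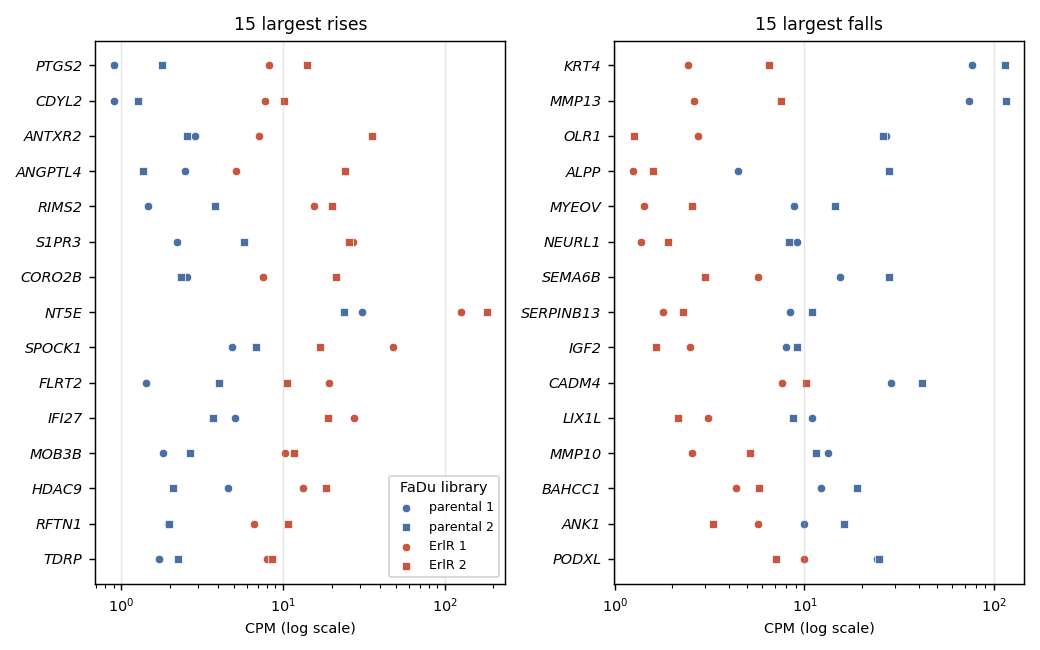
Each row is a gene and each point a library, with CPM on a log axis, for the 15 called genes with the largest rise (left) and the 15 with the largest fall (right) among genes at a mean of 5 CPM or more with groups that do not overlap. Both ErlR points lie on the same side of both parental points in every row because the genes were chosen so. The ErlR points of ANTXR2 and ANGPTL4 are widely separated.

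The largest falls were in a keratin and a collagenase. KRT4, a keratin of the suprabasal layers of mucosal squamous epithelium (chr12:52806549-52814551, minus strand), was at 76.1 and 114 CPM in parental and 2.42 and 6.53 CPM in ErlR, 21.2-fold lower (log2 fold change -4.41 ± 0.93 (SE), adjusted p = 0.0359). Its call was lost without each of the 4 libraries in turn, with log2 fold changes of -5.29 to -3.86. KRT13, its partner in that epithelium, was at 102 and 160 CPM against 4.60 and 22.5 CPM, which did not pass the test (log2 fold change -3.28 ± 0.89 (SE), adjusted p = 0.0718). Of 19 tested keratins, 4 were lower by the test and 0 higher. Their median log2 fold change was -0.79, and 13 of the 19 had both ErlR values below both parental values, against 27.1% of all genes. KRT81 and KRT7, a keratin of simple epithelia, fell by 1.25 and 1.09 on the log2 scale and KRT80 by 0.73. The abundant keratins of basal and simple epithelium did not pass: KRT5 was at 3688 and 6951 CPM against 2848 and 3285 CPM (adjusted p = 0.206), and KRT8 at 3629 and 4739 against 1767 and 3107 CPM (adjusted p = 0.166). KRT14 was at 113 and 312 CPM in the parental replicates and 44.1 and 89.5 CPM in ErlR (adjusted p = 0.185), so the parental replicates alone differed over 2-fold. KRT81 has the near-identical copy KRT86, so its counts are uncertain. With spike-in scaling the keratin median was -0.32, still below 0.

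Markers of squamous epithelium were present at high levels in both groups, with a sum of 7517 and 11940 CPM in parental and 7115 and 8270 CPM in ErlR. Of 10 squamous epithelium markers 10 were tested and 0 passed with edgeR in either direction, 4 passed an unadjusted p of 0.05, and 1 passed with DESeq2, as higher. TP63, the master factor of stratified epithelium, was at 181 and 160 CPM in parental and 232 and 213 CPM in ErlR (adjusted p = 0.0959). Marker sums of other cell types were low in all 4 libraries, at 4.56 to 10.1 CPM for 8 fibroblast, 3.04 to 5.60 CPM for 5 endothelial and 11.4 to 16.3 CPM for 6 leukocyte markers, and 0 of their 10 tested members passed with edgeR or DESeq2 (1 passed an unadjusted p of 0.05). Of 25 tested genes of the cornified envelope and squamous differentiation 1 passed, in the higher direction. BCL11A and NFE2L3, transcription factors of the squamous lineage list, rose by 1.78 and 1.19 on the log2 scale and PAX9 fell by 0.60. SERPINB13, a serpin of squamous epithelium, fell from 8.36 and 11.0 to 1.80 and 2.28 CPM (log2 fold change -2.24 ± 0.47 (SE), adjusted p = 0.0354).

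Of 30 tested matrix proteases and inhibitors, 2 passed higher and 4 lower (2.58% and 1.6% of all genes did), the latter being the metalloproteinases MMP13, MMP7, MMP10 and MMP15. MMP13, collagenase 3 (chr11:102942995-102955734, minus strand), was at 73.8 and 115 CPM in parental and 2.61 and 7.54 CPM in ErlR, 18.6-fold lower (log2 fold change -4.22 ± 0.43 (SE), adjusted p = 0.00402), with log2 fold changes of -3.64 without ErlR replicate 1 and -5.18 without ErlR replicate 2. MMP7, matrilysin, was at 4.23 and 4.63 against 0.994 and 0.761 CPM (log2 fold change -2.33 ± 0.37 (SE), adjusted p = 0.0168). MMP10, stromelysin 2, was at 13.2 and 11.6 against 2.55 and 5.13 CPM (log2 fold change -1.69 ± 0.33 (SE), adjusted p = 0.0271). These 3 genes lie in a single cluster on chromosome 11 with MMP1 (35.7 and 43.2 against 5.03 and 26.1 CPM, adjusted p = 0.181) and MMP12 (3.51 and 4.84 against 0.497 and 1.84 CPM, adjusted p = 0.104). MMP15, on another chromosome, fell by 0.79 on the log2 scale, and MMP14, a membrane protease, stood at 212 and 207 against 238 and 376 CPM without passing.

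Promoter sequence is shown for a pair of the falling proteases and a pair of rising secreted proteins whose promoters hold the AP-1 letters TGANTCA, because AP-1 is the factor through which ERK is best known to act on matrix proteases and cytokines. Each line gives the 150 bases upstream of the transcription start in GRCh38.p14, from RefSeq, 5′ to 3′ on the strand of the gene, with the AP-1 letters in capitals. MMP10 is chr11:102780629-102780778 (minus strand) and MMP7 is chr11:102530748-102530897 (minus strand), with the letters 67 bases before the start in both. LCN2 is chr9:128149303-128149452 (plus strand), with the letters 52 bases before the start, and IL11 is chr19:55370464-55370613 (minus strand), with the letters 96 bases before it.
MMP10: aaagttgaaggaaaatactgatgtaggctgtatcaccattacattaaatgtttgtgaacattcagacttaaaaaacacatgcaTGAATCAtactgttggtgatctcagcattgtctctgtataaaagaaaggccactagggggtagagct
MMP7: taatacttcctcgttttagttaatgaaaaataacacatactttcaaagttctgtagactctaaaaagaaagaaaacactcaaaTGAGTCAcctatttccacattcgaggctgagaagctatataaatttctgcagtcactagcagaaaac
LCN2: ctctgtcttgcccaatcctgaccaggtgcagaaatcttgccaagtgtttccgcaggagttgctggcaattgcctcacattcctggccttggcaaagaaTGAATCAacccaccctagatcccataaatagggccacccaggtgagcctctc
IL11: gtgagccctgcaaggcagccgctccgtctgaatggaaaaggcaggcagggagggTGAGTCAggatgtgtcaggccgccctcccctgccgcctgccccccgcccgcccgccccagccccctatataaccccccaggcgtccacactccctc
Letters were searched on both strands in the 250 bases before and 50 after the start. Of 175 genes called higher with a promoter in the table, 17 held TGANTCA (9.71%), and of 44 called lower 7 did (15.9%), against 4.69% of 11141 genes tested and 7.76% of all 27305 promoters. The TATA letters TATAAA were in 9.71% of the genes called higher and 25.0% of those called lower, against 5.75% of genes tested. These shares are descriptions, and a match is not a binding site.

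Several genes of the extracellular matrix rose. ADAMTS1, a protease of proteoglycans, rose from 8.17 and 4.23 to 25.5 and 26.7 CPM (log2 fold change 2.07 ± 0.27 (SE), adjusted p = 0.00935). Of 30 tested matrix glycoproteins and proteoglycans 3 rose and 0 fell by the test, against 2.58% and 1.6% of all genes: SPOCK1, SPARC (2.99 and 3.57 against 9.07 and 10.3 CPM) and TGFBI (26.3 and 33.3 against 65.4 and 67.5 CPM), a matrix protein induced by TGF-beta. Among 22 tested collagens, COL4A6 and COL8A1 rose by 1.93 and 1.53 on the log2 scale and COL9A3 fell by 1.29. Of 21 integrins and laminins 0 passed with edgeR, 7 passed an unadjusted p of 0.05, and DESeq2 called 1 in each direction by adjusted p. ITGB2, an integrin subunit that the list did not hold, was called lower and is given among the other observations.

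Mesenchymal markers moved in part. Of 14 tested cadherins and mesenchymal markers 4 rose and 0 fell, against 2.58% and 1.6% of all genes: NT5E, SPOCK1, GLIPR1 (4.46 and 5.25 against 14.5 and 21.4 CPM) and ACTA2, smooth muscle actin (1.90 and 1.88 against 6.15 and 5.71 CPM, log2 fold change 1.64). This list was chosen with earlier results of these data known. NT5E is counted again in the YAP and TAZ list, and SPOCK1 among the matrix glycoproteins and proteoglycans. The markers most used for an epithelial to mesenchymal shift did not pass. CDH1, E-cadherin, was at 196 and 217 CPM in parental and 219 and 261 CPM in ErlR (adjusted p = 0.433). CDH2, N-cadherin, was at 13.9 and 20.4 against 20.2 and 10.8 CPM (adjusted p = 0.822), and VIM, vimentin, at 20.3 and 16.7 against 19.9 and 20.1 CPM (adjusted p = 0.761), and the groups of both overlapped. Of 17 tested regulators of that shift, a list that holds drivers of it as well as epithelial factors that oppose it, 0 passed with edgeR, 5 passed an unadjusted p of 0.05, and 2 passed with DESeq2, both higher. SNAI1 was at 2.66 and 2.80 against 0.932 and 1.14 CPM (adjusted p = 0.0615) and TWIST1 at 2.42 and 3.72 against 5.66 and 8.49 CPM (adjusted p = 0.0635), both factors that drive the shift. EHF, an epithelial factor, was at 19.7 and 17.4 against 35.1 and 46.7 CPM (adjusted p = 0.0576), and ELF3, another, at 142 and 164 against 98.5 and 56.1 CPM (adjusted p = 0.0841).

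Some members of the TGF-beta, YAP and WNT pathways passed the test. INHBA, the activin A subunit, rose from 0.475 and 1.07 CPM to 4.23 and 4.06 CPM (log2 fold change 2.42 ± 0.44 (SE), adjusted p = 0.0233), and ACVR1, a type I receptor of the family, from 10.9 and 8.25 to 18.8 and 21.4 CPM (log2 fold change 1.07 ± 0.19 (SE), adjusted p = 0.0224). BMP7 fell by 0.84. In all, 2 of 36 tested members of that pathway rose and 1 fell, against 2.58% and 1.6% of all genes. INHBA lost its call without each of the 4 libraries in turn, and its log2 fold change was 3.11 without parental replicate 2. WWTR1, which encodes the coactivator TAZ, was at 55.6 and 54.7 against 82.8 and 163 CPM (log2 fold change 1.16 ± 0.25 (SE), adjusted p = 0.0385), and without ErlR replicate 2 its log2 fold change was 0.59. Of 21 tested genes of the YAP and TAZ list 5 rose and 0 fell (2.58% and 1.6% of all genes did), the others being NT5E, DLC1, AMOTL1 and TEAD1. CCN1 and CCN2, the targets most used to read YAP activity, did not pass, with log2 fold changes of -0.24 and 1.02. In the WNT list of 32, TCF7 rose by 1.35, and FZD2, LGR4 and LRP6, all at the level of receptors, fell by 1.24, 0.84 and 0.63. JAG1, a NOTCH ligand, rose by 0.83 and LFNG, which modifies NOTCH receptors, fell by 0.87, of 21 tested members of that pathway.

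Several cytokine genes rose. Of 25 tested cytokines and chemokines 6 rose and 0 fell by edgeR, against 2.58% of all genes higher by the same threshold. IL1B was at 30.5 and 34.1 CPM in parental and 69.2 and 79.7 CPM in ErlR (log2 fold change 1.20 ± 0.13 (SE), adjusted p = 0.00588), and IL1A, the other interleukin 1, at 40.7 and 33.1 against 69.8 and 82.9 CPM (log2 fold change 1.05 ± 0.15 (SE), adjusted p = 0.0107). IL11, a cytokine of the interleukin 6 family, was at 1.04 and 1.58 against 3.98 and 6.02 CPM, and IL24 at 1.80 and 2.80 against 5.41 and 12.3 CPM. TSLP and CXCL16 rose by 1.78 and 0.72 on the log2 scale. TNFAIP2 went the other way without passing, at 346 and 364 against 155 and 136 CPM (adjusted p = 0.0556), although its groups were far apart. CXCL8 was at 13.7 and 11.8 against 11.5 and 20.0 CPM. LCN2, the iron-binding lipocalin of inflamed mucosa, rose from 17.6 and 22.8 to 70.0 and 45.8 CPM (log2 fold change 1.52 ± 0.27 (SE), adjusted p = 0.0233), and did not pass in the edgeR fit of all 12 libraries (adjusted p = 0.139). It was the only one of 9 tested mucosal secretory genes to pass higher by adjusted p with edgeR. By adjusted p DESeq2 had 3 higher and 1 lower, and at an unadjusted p of 0.05 edgeR had 4 higher and 4 lower. AGR2, a secretory disulphide isomerase, fell from 2.42 and 1.94 to 0.124 and 0.634 CPM (log2 fold change -2.51 ± 0.59 (SE), adjusted p = 0.0484).

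Most interferon-stimulated genes had a log2 fold change above 0, and few passed the test. Of 41 tested 2 rose and 0 fell, although 34 had a log2 fold change above 0 and their median was 0.43. IFI27 rose from 5.08 and 3.72 to 27.6 and 19.1 CPM (log2 fold change 2.40 ± 0.25 (SE), adjusted p = 0.00402) and ISG20, an exonuclease, from 0.902 and 1.78 to 5.66 and 4.94 CPM (log2 fold change 1.98 ± 0.45 (SE), adjusted p = 0.0427). For most of the others ErlR replicate 1 was above ErlR replicate 2. OASL showed this at 49.7 and 109 CPM in parental and 303 and 93.1 CPM in ErlR, and IFIT2 at 32.9 and 48.7 against 125 and 51.2 CPM. CD274, the immune checkpoint ligand PD-L1, rose in both libraries, from 5.37 and 7.89 to 20.8 and 32.5 CPM (log2 fold change 2.01 ± 0.26 (SE), adjusted p = 0.00935), the only one of 20 tested genes of the MHC list to pass.

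The median of the mitotic genes lay slightly below that of all genes. Of 33 tested 0 were higher and 3 lower by adjusted p with edgeR (BUB1B, CCNB2 and CDC25B, by 0.58, 0.57 and 0.49 on the log2 scale), 14 were lower and 0 higher at an unadjusted p of 0.05, and DESeq2 had 9 lower and 0 higher. The median log2 fold change was -0.26, and 21 of the 33 had both ErlR values below both parental values, against 27.1% of all genes. With spike-in scaling the median turned to 0.22 and 4 of the 33 were below 0, so the direction depends on the scaling. AURKA, the mitotic kinase that the study tested as a drug target, was at 176 and 171 CPM in parental and 121 and 125 CPM in ErlR (log2 fold change -0.50 ± 0.12 (SE), adjusted p = 0.0571), and -0.01 with spike-in scaling. It passed in the edgeR fit of the 4 libraries compared (adjusted p = 0.0300) and with DESeq2 (adjusted p = 0.00181), and not with the replicate block (adjusted p = 0.0709) or in the fit of all 12 libraries (adjusted p = 0.105). TPX2, its activator, was at 572 and 564 against 503 and 585 CPM (adjusted p = 0.810), and NEDD9, a scaffold that binds AURKA, at 2.28 and 3.82 against 6.46 and 2.66 CPM (adjusted p = 0.607), both with overlapping groups. WEE1 and CDK1 had log2 fold changes of 0.18 and 0.02. CDKN1A, the cell cycle inhibitor p21, rose from 22.3 and 19.3 to 41.3 and 96.9 CPM (log2 fold change 1.73 ± 0.33 (SE), adjusted p = 0.0271), and without ErlR replicate 2 its log2 fold change was 0.99. Of 16 tested p53 targets, CDKN1A was the only one to rise by the test, and 1 fell.

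Angiogenic and xenobiotic genes gave a few further calls. VEGFC, the growth factor of lymphatic endothelium, rose from 14.1 and 15.7 to 46.2 and 55.9 CPM (log2 fold change 1.78 ± 0.15 (SE), adjusted p = 0.00278), with close replicates in both groups. NRP2, a coreceptor of VEGFC, fell from 17.9 and 18.1 to 8.51 and 9.00 CPM (log2 fold change -1.04 ± 0.17 (SE), adjusted p = 0.0187). TIPARP and AHRR, both targets of the aryl hydrocarbon receptor, rose by 1.12 and 1.84 on the log2 scale, in a list of 15 in which 2 rose and 2 fell. ARNT, the dimer partner of that receptor, fell by 0.59, and its best known targets CYP1A1 (0.760 and 0.917 against 0.186 and 1.97 CPM) and CYP1B1 (2.23 and 3.21 against 4.85 and 2.41 CPM) overlapped between the groups. PMAIP1, the BH3-only protein NOXA, rose from 10.8 and 17.4 to 34.2 and 29.9 CPM (log2 fold change 1.19 ± 0.23 (SE), adjusted p = 0.0271). Among 18 tested members of a list of ABC transporters, some of which export drugs, ABCA12 was the only one to pass. This lipid transporter of keratinocytes rose by 1.83. ABCC9, an ABC family gene that the list did not hold, was also called higher (adjusted p = 0.0187). Members of the cholesterol, NRF2 and unfolded protein lists gave 0 calls by adjusted p with edgeR among 31, 26 and 20 tested. At an unadjusted p of 0.05 these lists had 4, 10 and 3 genes, and by adjusted p DESeq2 had 0, 3 and 1.

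**Figure D4:**
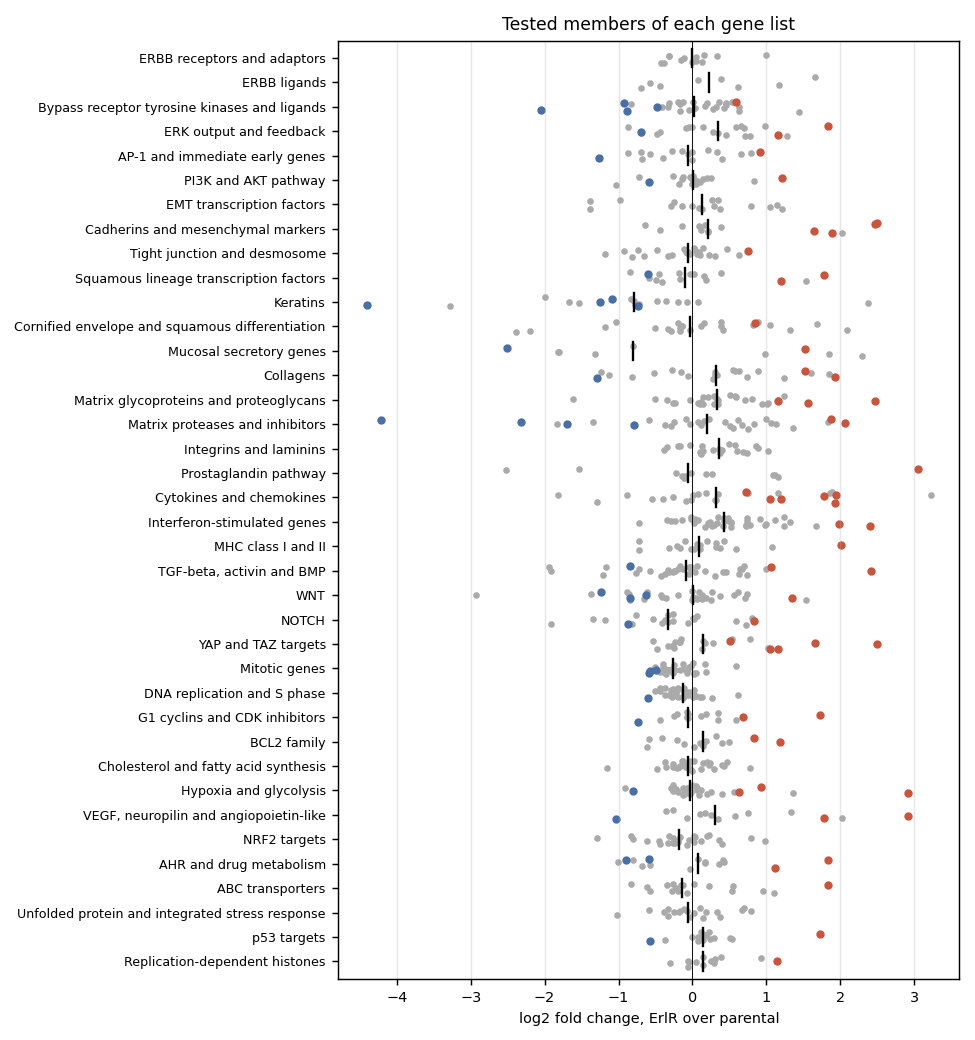
Each row is a gene list and each point a tested member at its log2 fold change in FaDu ErlR over FaDu parental, with red for members higher and blue for members lower at an adjusted p under 0.05, grey for the rest, and a black bar at the list's median. Most medians lie near 0, the keratin median lies at -0.79, and the 6 cytokine genes that passed are all on the right.

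Other large falls were OLR1, the receptor of oxidised LDL, from 26.97 and 25.9 to 2.73 and 1.27 CPM (log2 fold change -3.72 ± 0.45 (SE), adjusted p = 0.00880), and ALPP, placental alkaline phosphatase, from 4.46 and 27.96 to 1.24 and 1.58 CPM. ALPP rested on parental replicate 2, without which its log2 fold change went from -3.51 to -1.66, and it has near-identical copies in the genome. OLR1 overlaps TMEM52B on the opposite strand, and reads of the pair cannot be told apart without the strand setting of the counting. MYEOV, a gene often amplified in squamous carcinoma, fell by 2.55, and NEURL1, a ubiquitin ligase, by 2.41. SEMA6B, a semaphorin, fell by 2.32, and the adhesion proteins CADM4 and PODXL by 1.99 and 1.53. LIX1L, BAHCC1 and ANK1 fell by 1.90, 1.62 and 1.53 on the log2 scale.

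FaDu ErlR was also tested against FaDu AfaR in the same fit, where 897 genes were called (5.94% of genes tested). The 30 genes were chosen on the same ErlR libraries, so the counts that follow are not independent of the choice. Of the 15 rises from parental, 6 were higher in ErlR than in AfaR and 1 lower. NT5E was at 33.9 and 42.9 CPM in AfaR, below both ErlR values (log2 difference 2.00, adjusted p = 0.00119), and CORO2B differed by 2.32 (adjusted p = 0.0122). IFI27 was lower in ErlR than in AfaR, where it was at 194 and 268 CPM (log2 difference -3.31, adjusted p = 0.000267). Of the 15 falls, 6 were lower in ErlR than in AfaR and 0 higher, among them OLR1 (log2 difference -2.95, adjusted p = 0.00487) and CADM4 (-2.39, adjusted p = 0.00267). The remaining genes of the 30 were not called in this comparison, which does not show that they were equal. MYEOV was at 1.13 and 2.42 CPM in AfaR and 1.43 and 2.54 CPM in ErlR (log2 difference 0.14, adjusted p = 0.854). KRT4, the largest fall from parental, was at 0.470 and 13.9 CPM in AfaR (log2 difference -0.72, adjusted p = 0.630). RFTN1, one of the rises, was at 7.15 and 7.76 CPM in AfaR (log2 difference 0.22, adjusted p = 0.598). CDH2 was at 45.9 and 47.5 CPM in AfaR, above both ErlR values (log2 difference -1.59, adjusted p = 0.00736). ErlR and AfaR libraries differed in depth and spike-in share in the same way as ErlR and parental did.

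The effect of erlotinib resistance was then compared between lines, as the log2 fold change of ErlR over parental in FaDu minus that in Cal27. This difference was called for 1765 of 16240 genes (10.9%). It was called for 14 of the 30 genes with the largest changes in FaDu, which were chosen on the same FaDu libraries, so a higher share than over all genes follows in part from the choice. PTGS2 was at 4.99 and 14.4 CPM in Cal27 parental and 4.87 and 5.59 CPM in Cal27 ErlR, with overlapping groups (difference between lines 3.92 ± 0.62 (SE), adjusted p = 0.00161). HDAC9 rose in FaDu and fell in Cal27, from 124 and 139 to 76.7 and 71.4 CPM (difference 3.05 ± 0.35 (SE), adjusted p = 0.000222). MYEOV went the opposite way, rising in Cal27 from 37.5 and 28.9 to 136 and 116 CPM (difference -4.48 ± 0.47 (SE), adjusted p = 0.000103). NT5E rose in Cal27 too, from 124 and 72.2 to 548 and 438 CPM, with a difference of 0.16 ± 0.37 (SE, adjusted p = 0.812), and OLR1 fell there from 130 and 118 to 5.78 and 8.27 CPM, with a difference of 0.41 ± 0.55 (SE, adjusted p = 0.648). FLRT2, MOB3B, CADM4 and MMP13 had the same direction in both lines, with differences that did not pass. AURKA was higher in Cal27 ErlR than in Cal27 parental, at 311 and 322 against 185 and 168 CPM, and the difference between lines was called (-1.36 ± 0.22 (SE), adjusted p = 0.00205). All Cal27 libraries had similar depths, and the part of the FaDu library measures in this difference was not tested.

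**Figure D5:**
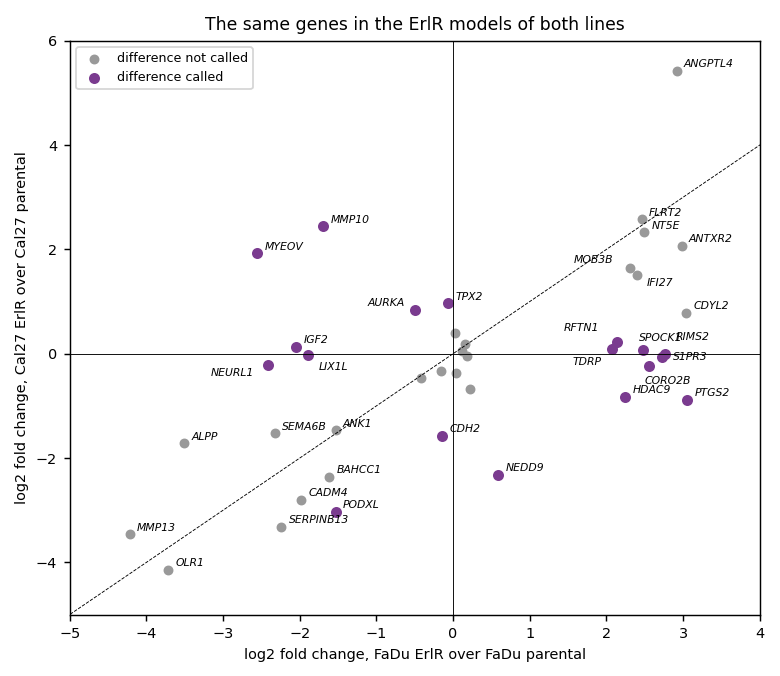
Each point is a gene, of the 30 with the largest changes in FaDu ErlR and the 12 genes the study turned on, with the log2 fold change of ErlR over parental in FaDu on the x axis and in Cal27 on the y axis; KRT4 is left out because it was not tested in Cal27. Purple points are genes whose difference between lines was called, the dashed line marks equal change, and NT5E and FLRT2 lie near it while MYEOV, MMP10, HDAC9 and PTGS2 lie far from it.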

How the data were processed

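Poly(A) RNA of 2 biological replicates per model was sequenced with an ERCC spike-in, and the authors deposited raw read counts per Ensembl gene for each of the 12 libraries. The submitters' processing notes name Trimmomatic 0.36, STAR 2.5.2b, featureCounts of Subread 1.5.2 and GRCh38; the strand setting is not given in the sources used here, so antisense overlaps and near-identical copies are uncertain. The authors' normalised tables and comparison columns were not used. Counts on genes ranged from 16334937 to 23399259 per library, and the 92 ERCC rows were left out.

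Counts of the 6 FaDu libraries were fitted with edgeR 4.0.16 in R 4.3.3 (filterByExpr, TMM normalisation, quasi-likelihood F test with 3 residual degrees of freedom, Benjamini-Hochberg adjustment over 15092 genes). CPM are TMM-normalised unless given as CPM on raw gene totals. Calls needed an adjusted p below 0.05 and a change of more than 1 on the log2 scale. The difference between lines was an interaction term in a fit of all 12 libraries (16240 genes). Alternatives included DESeq2 1.42.0, other scalings, filters and blocks, and leaving out each library. Each SE is the size of the log2 fold change divided by the square root of its quasi-likelihood F statistic, and was not estimated directly. The scripts were tested on simulated data. P-values of the reported fit weigh each change against the spread between replicates of the 6 FaDu libraries. As ErlR was 1 resistant population, they do not speak for other erlotinib-resistant populations.

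Named genes were the 15 called genes with the largest rise and the 15 with the largest fall at a mean of at least 5 CPM with groups that do not overlap, up to 3 called members per list and direction, and 12 genes the study turns on. Genes outside this rule were chosen after their values were seen. The members and lists were chosen with earlier results of these data known. Positions are from GENCODE on GRCh38, and promoters from RefSeq on GRCh38.p14, where 11141 of 14366 symbols of tested genes had an entry. Some named genes are not reported here.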

Additional observations from a re-analysis of the deposited data

Results flagged for a closer look

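For 18 named genes the effect of erlotinib resistance, as the log2 fold change of ErlR over parental, differed between FaDu and Cal27 by the interaction test of edgeR (adjusted p under 0.05, size over 1). These are given as FaDu minus Cal27. Among the rises in FaDu, the difference was 3.92 for PTGS2, 3.05 for HDAC9, 2.78 for CORO2B, 2.77 for S1PR3, 2.76 for RIMS2, 2.39 for SPOCK1, 1.97 for TDRP and 1.90 for RFTN1. RIMS2 and S1PR3 had log2 fold changes of -0.01 and -0.06 in Cal27, and CORO2B was below 1 CPM in all 4 Cal27 parental and ErlR libraries. Among the falls, it was -4.48 for MYEOV, -4.15 for MMP10, -2.20 for NEURL1, -2.19 for IGF2 and -1.88 for LIX1L. PODXL fell in both lines and more so in Cal27, with a difference of 1.49. MMP10 in Cal27 was at 1.08 and 0.969 CPM in parental and 10.3 and 0.994 CPM in ErlR, so 1 library set its Cal27 value.

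Among genes the study turned on, the difference was -1.36 for AURKA, -1.04 for TPX2, 2.90 for NEDD9 and 1.41 for CDH2. AURKA and TPX2 were higher in Cal27 ErlR than in Cal27 parental, by log2 fold changes of 0.84 and 0.97, and NEDD9 and CDH2 lower, by log2 fold changes of -2.33 and -1.57. None of these 4 genes passed the test in the reported fit of FaDu, although AURKA did in the edgeR fit of the 4 libraries compared (adjusted p = 0.0300) and with DESeq2 (adjusted p = 0.00181). In FaDu the ErlR and parental libraries differed in depth, spike-in share, snoRNAs and skeletal muscle genes, and in Cal27 depth and spike-in share did not separate them, whereas the sum of the muscle genes was lower and that of the snoRNAs higher in both ErlR libraries than in both parental libraries, as in FaDu. The part of these measures in the differences was not tested.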

How the results depend on the processing

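The counts of 233 genes higher and 76 lower in FaDu ErlR moved most with a test against a fold limit, the scaling, the filter and the library left out. With spike-in scaling there were 1514 higher and 62 lower, 96.1% higher against 75.4% as reported; with no filter on low counts 498 and 203; with a test against a fold change of 2 there were 6 and 1; with no fold limit 389 and 242; and with an unadjusted p 668 and 282. Leaving out 1 library gave 43 to 243 higher and 11 to 67 lower. DESeq2 gave 241 and 95, with 259 of the 309 genes shared, and relative log expression and upper-quartile factors gave 239 and 76 and 235 and 73. The replicate numbers did not pair the samples: the correlation of replicate differences was -0.102 between parental and ErlR, 0.105 between parental and AfaR and -0.086 between AfaR and ErlR over 15092 genes. With the replicate number as a block 173 genes were higher and 66 lower, 222 of them among the 309, and with the ErlR numbers crossed, an alternative chosen after seeing the data, 304 and 114. The 897 calls against AfaR ranged from 343 (without ErlR replicate 2) to 743 when an ErlR library was left out, and the 1765 of the interaction from 1282 to 1846. Of the 30 genes named for size, 29 kept their call with DESeq2 and 28 with the replicate block, and 15 to 24 did without each library. In the fit of all 12 libraries ANGPTL4, MMP10, LCN2, AGR2, IL11 and TSLP lost their call. No named gene with a call turned its direction in any alternative. With 2 libraries per group and 16383694 to 21867912 counts on genes, changes of low genes had wide errors, and a missed threshold does not show that a gene did not differ.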

Other observations

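Several genes outside the lists were called, and are named here after their values were seen. The hyaluronan synthases HAS2 and HAS3 rose, HAS2 from 0.570 and 0.560 CPM to 3.54 and 9.32 CPM (log2 fold change 3.49 ± 0.71 (SE), adjusted p = 0.0327) and HAS3 from 39.3 and 29.0 to 74.8 and 76.0 CPM (log2 fold change 1.14 ± 0.17 (SE), adjusted p = 0.0123). CD44, the surface receptor of hyaluronan, was at 261 and 288 CPM in parental and 413 and 750 CPM in ErlR (log2 fold change 1.08 ± 0.24 (SE), adjusted p = 0.0394). The kinase MAP4K4 had close replicates, at 229 and 230 CPM against 484 and 510 CPM (log2 fold change 1.11 ± 0.11 (SE), adjusted p = 0.00402). MICAL2, an oxidoreductase that disassembles actin filaments, was at 49.3 and 51.3 against 124 and 183 CPM, and AKAP12, a scaffold of protein kinase A, at 74.3 and 66.6 against 129 and 300 CPM. The lactate exporter SLC16A3 fell from 377 and 349 to 158 and 199 CPM (log2 fold change -1.02 ± 0.13 (SE), adjusted p = 0.00935), and ITGB2, an integrin subunit best known from leukocytes, from 45.2 and 53.1 to 18.8 and 17.9 CPM (log2 fold change -1.42 ± 0.19 (SE), adjusted p = 0.00992).

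HMGN5, a nucleosome-binding protein, was at 0.237 and 0.560 CPM in parental and 7.33 and 6.09 CPM in ErlR (log2 fold change 4.07 ± 0.36 (SE), adjusted p = 0.00376). ABCC9, a regulatory subunit of potassium channels, had 0 counts in both FaDu parental libraries, 22 and 15 in FaDu ErlR and 1 and 3 in FaDu AfaR. It was at least 7.95-fold higher in FaDu ErlR than in FaDu parental against a floor of 3 counts per library. In Cal27 it had 0 and 0 counts in parental, 81 and 127 in AfaR and 10 and 3 in ErlR.

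Fold changes of neighbouring genes were not spread evenly over the genome. In 169 windows of 5 Mb with at least 20 genes at 5 CPM or more, the median log2 fold changes had an SD of 0.15. The lowest was -0.50 at chr9:110000001-115000000, where both ErlR values lay below both parental values for 23 of 28 genes, and -0.46 at chr1:150000001-155000000, with 56 of 67 genes, against 31.0% of all genes at this level. The highest was 0.45 at chr11:30000001-35000000, where both ErlR values lay above both parental values for 18 of 21 genes, against 26.4% of all. These windows were picked after their values were seen, genes in a window are not independent, and copy number was not measured here.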
